A study of Homo sapiens with 20 samples.

Results

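The genes described here encode 8 proteins listed as feedback inhibitors of NF-kB signalling. These are the IkB proteins NFKBIA, NFKBIB and NFKBIE, the nuclear IkB protein NFKBIZ, and the ubiquitin-directed regulators TNFAIP3, TNIP1, TNIP2 and CYLD. The genes were taken as a list of names, with every probe set that the platform annotation gives to 1 of them. This came to 22 probe sets of 41097 and 8 genes of 19775. Transcripts were measured on 20 Affymetrix U133 Plus 2.0 arrays. The cells were the human lines T-ALL1, KOPT-K, HPB-ALL, DND41 and CEM, each grown from a T cell acute lymphoblastic leukaemia (T-ALL), an aggressive cancer of immature T cells. Cells of each line had received for 16 h either the NBD peptide, which copies the NEMO binding domain and keeps NEMO (IKKγ) from the kinases IKKα and IKKβ, or a control peptide, with 2 arrays in each of the 10 groups. The labels state a peptide concentration of 100 µM in the descriptions and of 100 mM in the source names, so nothing here rests on the dose. Each line is 1 leukaemia grown in culture, and no group without peptide was analysed here. No label tells if the paired arrays in a group stem from independent cultures, so p-values over arrays measure a spread that may be technical.

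In resting cells, classical IkB proteins such as NFKBIA hold NF-kB dimers in the cytoplasm. The IkB kinase complex phosphorylates them, they are degraded, and NF-kB enters the nucleus and switches on genes that include its own inhibitors, above all NFKBIA (IkB-alpha) and TNFAIP3 (A20). CYLD removes the ubiquitin chains on which the kinase complex assembles, and the series title sets it under repression by HES1, a transcriptional repressor that Notch induces. Notch is active in many T-ALLs, which makes the level of these regulators, and what the NBD peptide does to them, the question of the comparisons below.

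NF-kB acts on its target genes through short sites in promoters and enhancers, so the promoters of the list were read for them. RefSeq promoters on GRCh38.p14 were matched for 7 of the 8 genes, with 12 annotated starts among them, and the 250 bases before each start were searched on both strands for the NF-kB consensus. Of the 12 windows 7 held a match, against 9.96% of all 35116 promoters. Windows of 1 gene were counted separately. Both 2 windows of NFKBIZ, which did not pass the test below, held a match, 223 and 239 bases before the starts. The 150 bases before the start are given for NFKBIA and TNFAIP3, whose transcripts rose with NBD, for TNIP1, which has a match close to its start and did not pass the test, and for CYLD, which had no match in these bases. For genes with several starts the farthest upstream is shown. Capitals mark the consensus, and each sequence runs 5′ to 3′ toward the start.
NFKBIA, chr14:35404750-35404899, minus strand: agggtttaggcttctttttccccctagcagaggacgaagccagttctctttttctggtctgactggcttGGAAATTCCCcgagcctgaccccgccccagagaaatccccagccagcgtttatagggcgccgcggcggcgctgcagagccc
TNFAIP3, chr6:137867109-137867258, plus strand: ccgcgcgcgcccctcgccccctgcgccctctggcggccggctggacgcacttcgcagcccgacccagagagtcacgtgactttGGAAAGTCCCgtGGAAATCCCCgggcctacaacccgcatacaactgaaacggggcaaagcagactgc
TNIP1, chr5:151081035-151081184, minus strand: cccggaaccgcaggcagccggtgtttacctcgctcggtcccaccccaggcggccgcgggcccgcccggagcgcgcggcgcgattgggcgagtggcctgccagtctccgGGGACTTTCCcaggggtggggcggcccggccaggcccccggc
CYLD, chr16:50741936-50742085, plus strand: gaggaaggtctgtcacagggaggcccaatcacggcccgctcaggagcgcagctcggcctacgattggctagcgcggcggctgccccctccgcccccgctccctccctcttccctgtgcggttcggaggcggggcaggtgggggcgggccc

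The match of NFKBIA began 81 bases before the start, those of TNFAIP3 67 and 55 bases before it, and that of TNIP1 42 bases before it. In NFKBIB the consensus lay 28 bases before the second of 2 annotated starts, and matches on both strands overlap there to make an imperfect palindrome, shown with its flanks.
NFKBIB, chr19:38899932-38899961, plus strand: ggcgtggtgGGGAATTTCCCgcagggcgga
The CYLD start shown had its only match 189 bases away, outside the stretch printed. The N-box CACNAG, an element that HES1 is known to bind, was found in 32.0% of all promoters. It was in 3 of the 12 windows, those of NFKBIA, NFKBIB and NFKBIZ, and in none of the 3 CYLD windows. At a share of 32.0%, 3 windows are too few to show a lack of the element. The AP-1 element TGANTCA was found in 6.57% of all promoters and in 1 of the 12 windows, that of NFKBIB. A match in a sequence is a description of these letters and does not show that a factor binds.

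Arrays of the same group correlated at 0.987 to 0.997 across probe sets, and arrays of different lines at 0.855 to 0.925. The T cell marker list holds CD3D, CD3E, CD3G, CD2, CD5, CD7, CD247, LCK, ZAP70 and TRAT1. It averaged 8.61 to 10.27 per array with NBD and 8.89 to 10.39 with control on the log2 scale. In this list CD2 reached the filter on 16 arrays, CD5 on 18 and the others on all 20. The myeloid list averaged 4.17 to 4.68 with NBD and 4.17 to 4.61 with control. Of its genes, ITGAM was at or above the filter on all 20 arrays and CSF1R on 8. The B cell list averaged 4.79 to 6.43 with NBD and 4.64 to 6.75 with control. For the fibroblast and epithelium list these averages were 4.76 to 5.24 and 4.66 to 5.31, with COL1A1 at or above the filter on all 20 arrays. Among B cell markers, MS4A1 was under the filter on all 20 arrays, CD79B reached it on all 20, and CD79A reached 11.46 on its highest array. The deposited columns were of 2 kinds: those of CEM, DND41 and HPB-ALL held 2 decimals and had mean intensities of 341.0 to 347.7, and those of KOPT-K and T-ALL1 held up to 7 decimals and had mean intensities of 386.9 to 396.1. Levels were therefore tested between lines only within a kind, while each NBD effect lies within 1 kind. The log2 difference between 3′ and 5′ actin probe sets, which grows as RNA degrades, was 1.07 and 0.99 for NBD in T-ALL1, against 3.16 and 2.05 on its control arrays, and lay between 0.73 and 1.81 on the arrays of the other lines.

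Averaged over the 5 lines, transcripts of NFKBIA, TNFAIP3 and 1 probe set of NFKBIB rose with the NBD peptide, and no member fell. NFKBIA rose by 0.33 ± 0.04 on the log2 scale (SE, 1.25-fold; limma adjusted p = 0.000253), and TNFAIP3 by 0.33 ± 0.03 in the probe set 202644_s_at (1.25-fold; limma adjusted p = 0.000105). NFKBIE, NFKBIZ, TNIP1, TNIP2 and CYLD did not pass the test in any of their probe sets. In counts, 21 of the 22 member probe sets passed the filter on low values, and 4 of these 21 were called higher and 0 lower, where 2.11% of all 26260 tested probe sets were called higher and 4.02% lower. The median average effect was 0.07 over the 21 member probe sets and -0.002 over all tested. Leaving out T-ALL1, the line with the uneven actin values, 5 of the 21 were called higher and 0 lower, where 2.19% of all tested were called higher and 4.28% lower. When the group means of the 5 lines served as replicates, limma called 0 of the 26260 probe sets and no member (lowest adjusted p = 0.241). At an unadjusted p under 0.05 that fit held 5 of the 21 member probe sets, against 10.6% of all tested. A trended and robust prior in the same fit called 5 probe sets, no member among them.

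**Figure D1:**
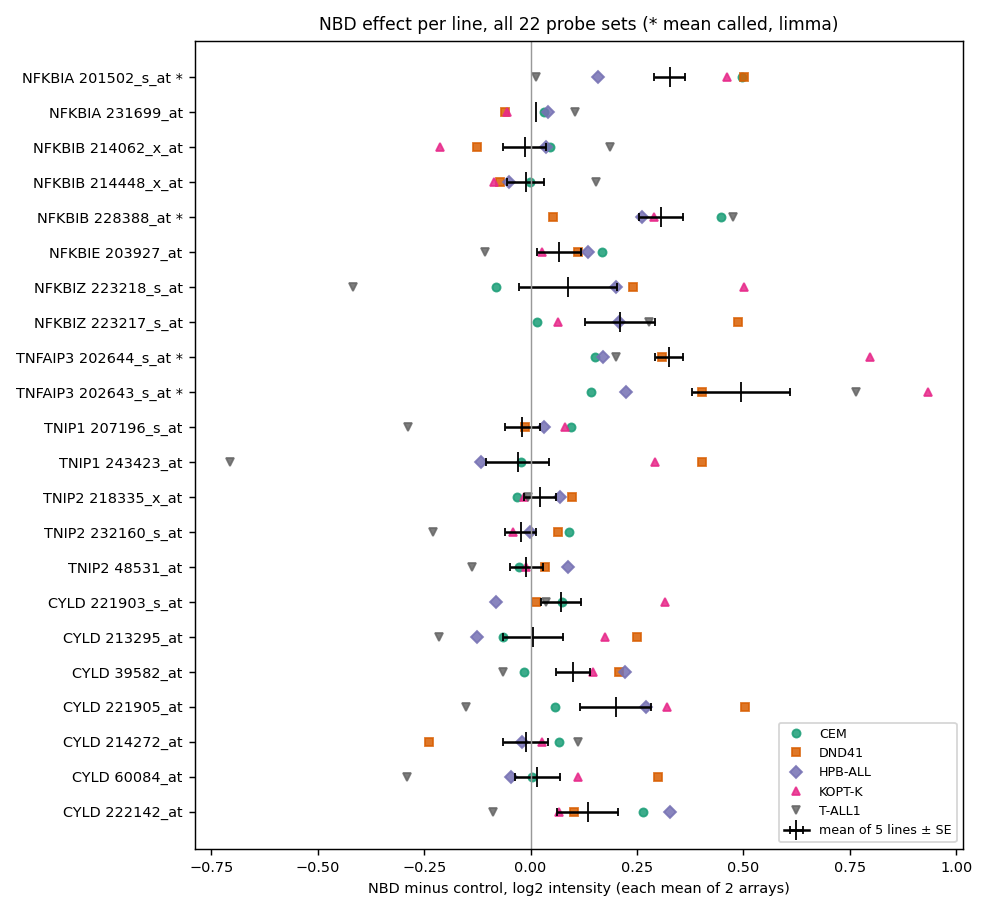
NBD minus control on the log2 scale (horizontal axis) for all 22 probe sets (rows), with 1 point per line from the means of 2 arrays per peptide. Black marks give the mean of the 5 lines with its SE for the 21 tested probe sets, and the 4 starred ones (NFKBIA 201502_s_at, NFKBIB 228388_at and both TNFAIP3 probe sets) were called higher.

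NFKBIA binds NF-kB dimers and takes them out of the nucleus, and it was higher with NBD in all 5 lines, by 0.01 to 0.50 on the log2 scale. In CEM the probe set 201502_s_at read 10.16 and 10.19 (log2) with NBD, against 9.64 and 9.72 with control. In DND41 it read 10.31 and 10.34 with NBD, against 9.81 and 9.84 with control. In KOPT-K it read 10.63 and 10.54 with NBD, against 10.08 and 10.17 with control. In these 3 lines the groups lay well apart, and each passed the test on its own: the effect was 0.50 ± 0.08 in CEM, 0.50 ± 0.08 in DND41 and 0.46 ± 0.08 in KOPT-K (SE, n = 2 arrays per group; limma adjusted p = 0.0159, 0.0110 and 0.0196). Of all probe sets, 0.632% were called in CEM, 1.20% in DND41 and 0.830% in KOPT-K. Each of these 3 calls was lost in 3 or 4 of the 4 fits that left out 1 array of its line (limma adjusted p up to 0.160). In HPB-ALL it read 10.51 and 10.43 with NBD, against 10.24 and 10.38 with control. In T-ALL1 it read 10.76 and 10.69 with NBD, against 10.62 and 10.81 with control. The HPB-ALL groups were apart by little and the T-ALL1 groups overlapped, with effects of 0.16 ± 0.08 and 0.01 ± 0.08 (limma adjusted p = 0.645 and 0.943). The F-test for a difference of the effect between lines gave an adjusted p of 0.0872, so a difference between the lines was not shown. Within the columns of CEM, DND41 and HPB-ALL alone the average was 0.39 (limma adjusted p = 0.00286), and within those of KOPT-K and T-ALL1 alone it was 0.24 (limma adjusted p = 0.290). The other NFKBIA probe set, 231699_at, stayed under the filter on all 20 arrays, with a mean of 3.93, and was not tested. An array of bulk RNA cannot tell fewer cells with a transcript from less transcript per cell.

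**Figure D2:**
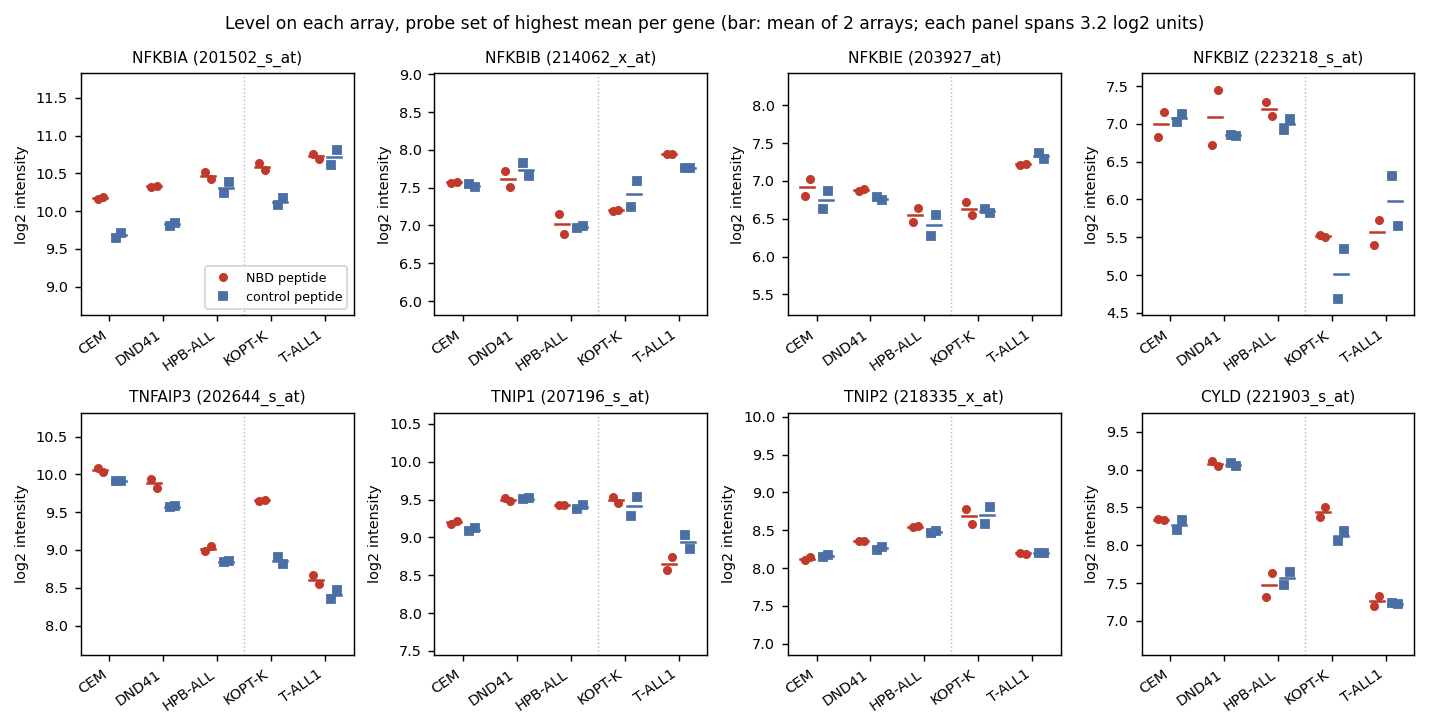
Log2 intensity (vertical axes, each spanning 3.2 units) on every array for the probe set of highest mean of each of the 8 genes, with NBD arrays (red circles) left of control arrays (blue squares) in each line and bars at group means. The NBD arrays of NFKBIA stand above the control arrays in CEM, DND41, HPB-ALL and KOPT-K, and those of TNFAIP3 in all 5 lines.

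NFKBIB (IkB-beta), another classical IkB protein, had 3 probe sets, which did not give 1 answer. The probe set 228388_at was higher with NBD in each line without overlap and rose by 0.31 ± 0.05 on average (SE; limma adjusted p = 0.00375), while 214062_x_at and 214448_x_at gave -0.01 ± 0.05 and -0.01 ± 0.04. The suffix x_at marks probe sets that can share probes with other transcripts. Over the 20 arrays the log2 values of the x_at probe sets correlated with each other at 0.954. With 228388_at, which had the lowest mean of the 3 (7.06), they correlated at 0.281 and 0.274. Which probe set reads NFKBIB best was not tested. In T-ALL1, 228388_at read 7.28 and 7.19 with NBD, against 6.64 and 6.87 with control, an effect of 0.48 ± 0.11 that was called in that line (limma adjusted p = 0.0317), as were 5.68% of all probe sets. With the actin difference as a covariate, the T-ALL1 value was 0.11 (limma adjusted p = 0.881) and the average over lines 0.23 (limma adjusted p = 0.0432). Without the first T-ALL1 control array it was 0.36 in T-ALL1 and not called (limma adjusted p = 0.215). In CEM it read 7.55 and 7.57 with NBD, against 7.16 and 7.07 with control, and in DND41 7.54 and 7.52 with NBD, against 7.44 and 7.51 with control. The CEM groups stood far apart and the DND41 groups nearly touched, and neither line was called (limma adjusted p = 0.114 and 0.913). In HPB-ALL it read 7.23 and 7.25 with NBD, against 6.87 and 7.08 with control, and in KOPT-K 6.30 and 6.67 with NBD, against 6.17 and 6.22 with control. These lines lay between, at 0.26 and 0.29, and were not called either.

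NFKBIE (IkB-epsilon) averaged 0.07 ± 0.05 (SE; limma adjusted p = 0.516), with a 95% interval of -0.04 to 0.18, and was above 0 in 4 lines and -0.11 in T-ALL1. In CEM it read 6.81 and 7.02 with NBD, against 6.62 and 6.87 with control, and in T-ALL1 7.21 and 7.23 with NBD, against 7.37 and 7.29 with control. The CEM groups overlapped, and in T-ALL1 both NBD arrays were the lower ones, by an amount that did not pass (limma adjusted p = 0.609). NFKBIZ (IkB-zeta), a nuclear IkB that works as a cofactor of NF-kB at some promoters, had 2 probe sets at 0.09 ± 0.11 and 0.21 ± 0.08, neither of them called. With the actin difference as a covariate the first of these was 0.27 and not called either (limma adjusted p = 0.281). Its arrays scattered widely. In DND41 the probe set 223218_s_at read 6.72 and 7.45 with NBD, against 6.85 and 6.84 with control, and in T-ALL1 it read 5.39 and 5.73 with NBD, against 6.31 and 5.65 with control. A pair of NBD arrays thus differed by more than the peptides did in DND41. The other NFKBIZ probe set, 223217_s_at, was above 0 in all 5 lines, as were 5 of the 21 member probe sets against 4.80% of all tested.

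TNFAIP3, a deubiquitinase and ubiquitin ligase that dampens signalling to the IkB kinase complex, had both NBD arrays above both control arrays in all 5 lines, in each of its 2 probe sets. The rise was largest in KOPT-K, where 202644_s_at read 9.65 and 9.67 with NBD, against 8.91 and 8.81 with control. That effect of 0.80 ± 0.07 (SE, n = 2 arrays per group) was the only TNFAIP3 effect called in a single line (limma adjusted p = 6.7e-05). In DND41 it read 9.94 and 9.82 with NBD, against 9.56 and 9.58 with control. In CEM it read 10.09 and 10.03 with NBD, against 9.91 and 9.91 with control. These gaps were smaller, at 0.31 and 0.15 (limma adjusted p = 0.0682 and 0.456). In HPB-ALL it read 8.98 and 9.05 with NBD, against 8.84 and 8.85 with control, and in T-ALL1 8.67 and 8.55 with NBD, against 8.35 and 8.46 with control. Both were also free of overlap, with effects of 0.17 and 0.20 (limma adjusted p = 0.530 and 0.124). The effect differed between lines by the F-test (limma adjusted p = 0.0287), against 1.09% of all probe sets so called, and this difference was not called without KOPT-K (limma adjusted p = 0.721) and in 21 of 35 alternatives in all. Without KOPT-K the average was 0.21 and still called (limma adjusted p = 0.0154).

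The second TNFAIP3 probe set, 202643_s_at, rose by 0.49 ± 0.11 on average (SE; limma adjusted p = 0.0224). In KOPT-K it read 8.07 and 8.04 with NBD, against 7.25 and 6.99 with control. In T-ALL1 it read 6.68 and 6.79 with NBD, against 5.36 and 6.58 with control. The T-ALL1 control arrays thus lay far apart (SD 0.86, n = 2), and the lower one is the array with the actin difference of 3.16. With the actin difference as a covariate the average was 0.18 (limma adjusted p = 0.0896), while without T-ALL1 it was 0.43 (limma adjusted p = 0.00142). Groups without overlap in all 5 lines were seen for 3 of the 21 member probe sets, both of TNFAIP3 and 228388_at of NFKBIB, against 0.404% of all tested. By line and probe set, 49 of 105 pairs of groups lay apart with NBD higher and 8 with NBD lower, against 21.4% and 24.4% over all tested.

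TNIP1 and TNIP2 (ABIN1 and ABIN2) are ubiquitin-binding partners of A20, and their transcripts gave small average effects. TNIP1 gave -0.02 ± 0.04 and -0.03 ± 0.07 in its 2 probe sets, and TNIP2 gave -0.02 to 0.02 in its 3. TNIP2 218335_x_at, for example, read 8.20 and 8.19 with NBD in T-ALL1, against 8.20 and 8.20 with control, and 8.78 and 8.58 with NBD in KOPT-K, against 8.58 and 8.81 with control. The peptides lay within the spread of the arrays in both lines. The other TNIP2 probe sets gave values below 0 in T-ALL1. There 232160_s_at read 7.98 and 7.93 with NBD, against 8.27 and 8.11 with control, and 48531_at read 8.19 and 8.33 with NBD, against 8.47 and 8.32 with control. The first pair of groups lay apart and the second overlapped, with differences of -0.23 ± 0.08 and -0.14 ± 0.09 that were not called (SE; limma adjusted p = 0.109 and 0.356). With the actin difference as a covariate the averages of the 3 TNIP2 probe sets were 0.03 to 0.05. The widest 95% interval of these 5, that of TNIP1 243423_at, ran from -0.19 to 0.13. That probe set was the 1 member called lower in a single line: in T-ALL1 it read 6.02 and 6.17 with NBD, against 7.03 and 6.58 with control, a difference of -0.71 ± 0.17 (SE; limma adjusted p = 0.0291). The other TNIP1 probe set was also lower there, at 8.57 and 8.74 with NBD, against 9.04 and 8.85 with control (-0.29 ± 0.09; limma adjusted p = 0.0822). With the actin covariate the value of 243423_at in T-ALL1 was -0.28 (limma adjusted p = 0.784), and without the first T-ALL1 control array it was -0.48 (limma adjusted p = 0.227). Over all 105 combinations of probe set and line, 5 were called higher and 1 lower, against 0.827% and 0.917% of all tested. HPB-ALL had no member call, where 0.373% of all probe sets were called. At an unadjusted p under 0.05 it had 3 of the 21, against 8.80% of all tested.

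CYLD is the gene that the series title places between HES1 and NF-kB. Its 7 probe sets gave average effects of -0.01 to 0.20, none of them called. In KOPT-K the probe set 221903_s_at read 8.37 and 8.51 with NBD, against 8.05 and 8.19 with control. In DND41 it read 9.12 and 9.05 with NBD, against 9.08 and 9.05 with control. The KOPT-K arrays did not overlap and those of DND41 did, with effects of 0.32 ± 0.11 and 0.01 ± 0.11 (SE; limma adjusted p = 0.264 and 0.980). The average of this probe set was 0.07 ± 0.05, with a 95% interval of -0.03 to 0.17 (limma adjusted p = 0.436). For 39582_at the average was 0.10 ± 0.04 (limma adjusted p = 0.175). In HPB-ALL this probe set read 7.01 and 7.21 with NBD, against 6.92 and 6.85 with control, and in DND41 8.17 and 8.40 with NBD, against 8.08 and 8.07 with control. Both lines had the NBD arrays on top, and neither passed (limma adjusted p = 0.474 and 0.356). The largest average was that of 221905_at, at 0.20 ± 0.08 with an interval of 0.02 to 0.38 (limma adjusted p = 0.181). In DND41 this probe set read 7.29 and 7.53 with NBD, against 7.01 and 6.80 with control, and in KOPT-K 6.76 and 6.76 with NBD, against 6.37 and 6.51 with control. In T-ALL1 it read 5.90 and 6.20 with NBD, against 6.50 and 5.91 with control. The NBD arrays were higher in DND41 and KOPT-K, the T-ALL1 groups overlapped, and without T-ALL1 the average was 0.29 and called (limma adjusted p = 0.0370). With the actin difference as a covariate it was 0.34 (limma adjusted p = 0.0561). The same covariate gave 0.24 for 222142_at, against 0.13 without it, and 0.15 for 213295_at, which was near 0 without it, and neither was called (limma adjusted p = 0.118 and 0.225). All 7 CYLD probe sets were above 0 in KOPT-K and 6 of 7 in DND41, while 5 were above 0 in CEM, 3 in HPB-ALL and 2 in T-ALL1. None of these 35 values passed the test.

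HES1 fell with NBD in the same experiment. Its probe set 203394_s_at fell by 2.10 ± 0.23 in T-ALL1, by 1.21 ± 0.23 in KOPT-K and by 1.03 ± 0.23 in DND41 (SE; limma adjusted p = 0.000467, 0.0231 and 0.0445). In HPB-ALL it gave -0.73 and in CEM -0.39, which did not pass (limma adjusted p = 0.268 and 0.548). The other HES1 probe set above the filter, 203395_s_at, was called in CEM too, at -0.89 ± 0.15 (limma adjusted p = 0.0172), and not in HPB-ALL. The T-ALL1 control arrays are those with actin differences of 3.16 and 2.05. With that difference as a covariate, 203394_s_at gave -1.21 ± 0.39 in T-ALL1 and was not called there (limma adjusted p = 0.203), while KOPT-K and DND41 kept their calls at -1.16 and -0.95 (limma adjusted p = 0.00941 and 0.0255). In T-ALL1, CYLD 221903_s_at gave 0.04 ± 0.11, with a 95% interval of -0.19 to 0.27, and 0.07 ± 0.22 with the covariate. There 213295_at, 221905_at and 222142_at gave -0.21, -0.15 and -0.09 without the covariate, and 0.52 ± 0.23, 0.55 ± 0.32 and 0.46 ± 0.29 with it. With it 39582_at, 60084_at and 214272_at gave -0.04, -0.13 and -0.22. None of these CYLD values was called. A relation between the HES1 and CYLD effects was not tested, since the 5 lines are too few for a correlation.

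**Figure D3:**
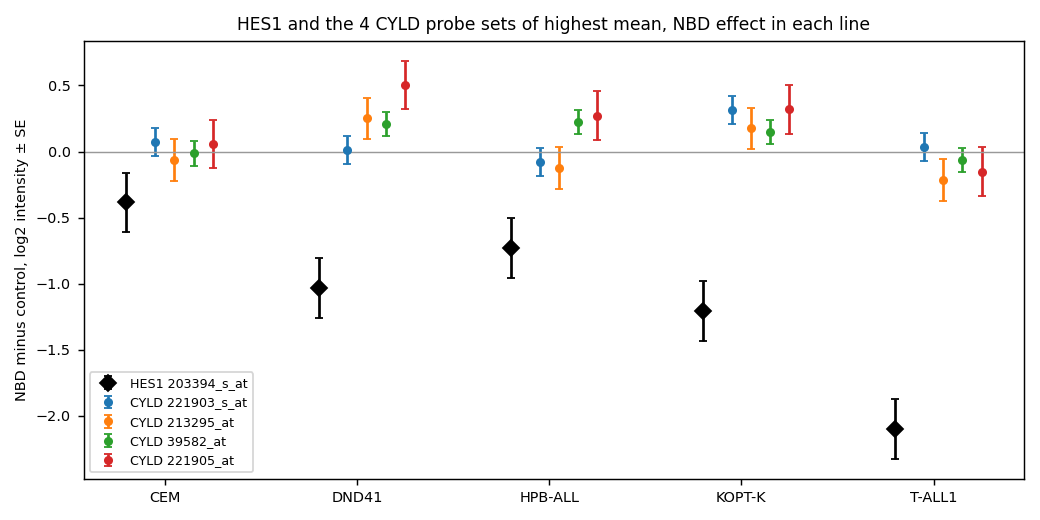
NBD minus control on the log2 scale with its SE (vertical axis) in each of the 5 lines, for HES1 (black diamonds) and the 4 CYLD probe sets of highest mean (coloured circles). HES1 lies between -0.39 and -2.10, whereas the CYLD values lie between -0.21 and 0.50 on both sides of 0.

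CYLD levels differed between the lines. On the mean of 4 arrays, 221903_s_at was 9.07 ± 0.03 in DND41, 8.30 ± 0.07 in CEM and 7.52 ± 0.16 in HPB-ALL (SD, n = 4), and every pair of these lines differed (limma adjusted p = 8.76e-07, 6.15e-07 and 3.26e-10 for CEM and DND41, CEM and HPB-ALL, and DND41 and HPB-ALL). Of all probe sets, 47.8%, 54.4% and 52.5% differed between these pairs of lines. It was 8.28 ± 0.20 in KOPT-K and 7.24 ± 0.06 in T-ALL1, a difference of 1.04 ± 0.08 (SE; limma adjusted p = 2.66e-08). For this probe set DND41 had the highest mean and T-ALL1 the lowest, an order across the 2 kinds of column that was not tested. The probe sets 213295_at, 39582_at and 221905_at put these 2 lines in the same places. The spread from the highest to the lowest line was 1.83, 1.91 and 2.02 for the first 3 CYLD probe sets and 1.03 for 221905_at. The median over all tested probe sets was 0.86. The probe set 214272_at was nearly level, with a spread of 0.16, and 60084_at and 222142_at reached the filter on 4 arrays each. As deposited, both 60084_at and 222142_at had KOPT-K highest and HPB-ALL lowest, with spreads of 1.03 and 1.46. Under quantile normalization and under median centring both put DND41 above KOPT-K.

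TNFAIP3 and NFKBIA ordered the lines in opposite ways. TNFAIP3 202644_s_at was 9.98 ± 0.09 in CEM, 9.73 ± 0.18 in DND41 and 8.93 ± 0.10 in HPB-ALL (SD, n = 4). It was 9.26 ± 0.46 in KOPT-K and 8.51 ± 0.13 in T-ALL1. All neighbours within a kind of column differed (limma adjusted p = 0.000996 for CEM and DND41, 1.13e-08 for DND41 and HPB-ALL, and 1.95e-08 for KOPT-K and T-ALL1). NFKBIA was 9.93 ± 0.29 in CEM, 10.08 ± 0.29 in DND41 and 10.39 ± 0.11 in HPB-ALL. It was 10.36 ± 0.27 in KOPT-K and 10.72 ± 0.08 in T-ALL1. CEM and DND41 did not differ for NFKBIA beyond the threshold (limma adjusted p = 0.0536), whereas DND41 and HPB-ALL, and KOPT-K and T-ALL1, did (limma adjusted p = 0.00038 and 0.000101). T-ALL1, lowest for TNFAIP3 and highest for NFKBIA across both kinds of columns, was also the line with the smallest NBD effect on NFKBIA. A difference of that effect between lines was not shown (F-test, limma adjusted p = 0.0872), and the T-ALL1 control arrays had actin differences of 3.16 and 2.05. For TNFAIP3 202644_s_at the smallest effect was 0.15 ± 0.07 in CEM, its highest line, and T-ALL1, its lowest, gave 0.20 ± 0.07 (SE). A relation between level and effect was not tested. The orders of all 5 lines by level were kept for NFKBIA, TNFAIP3 and CYLD 221903_s_at under quantile normalization and under median centring of the 20 arrays.

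**Figure D4:**
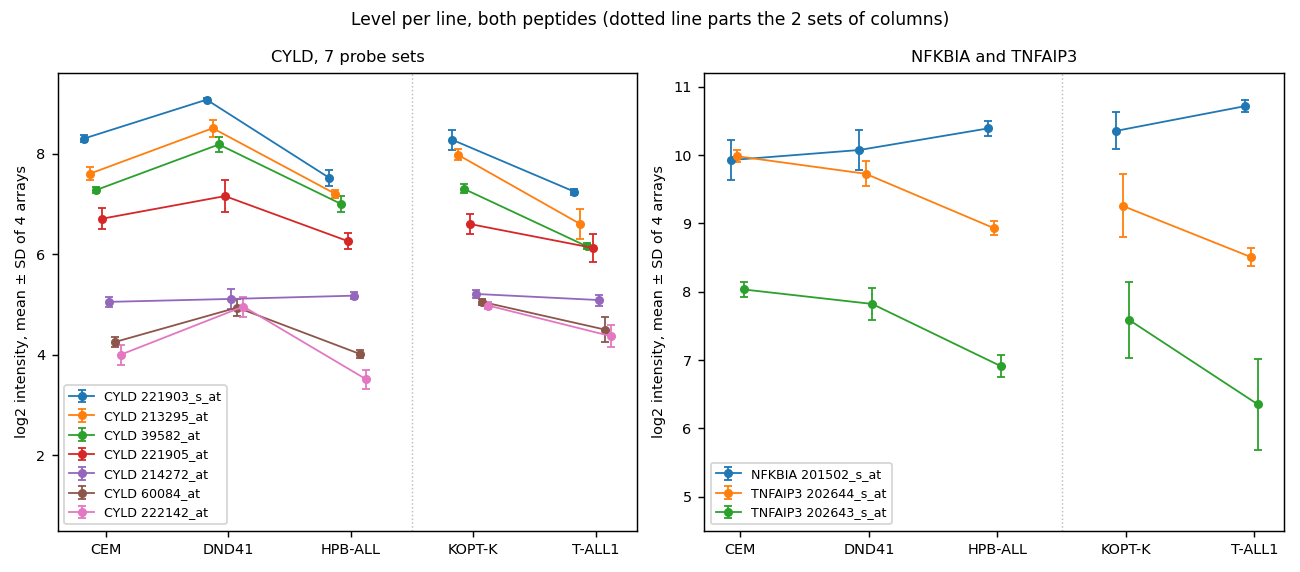
Log2 intensity (vertical axes, mean ± SD of the 4 arrays of a line, both peptides together) for the 7 CYLD probe sets (left) and for NFKBIA and TNFAIP3 (right) in the 5 lines, with a dotted line between the 2 kinds of columns. CYLD is highest in DND41 and lowest in T-ALL1 in its first 4 probe sets, and NFKBIA climbs where TNFAIP3 declines.

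Among the rest, 18 of the 21 member probe sets differed in level among CEM, DND41 and HPB-ALL, against 67.2% of all tested, and 19 differed between KOPT-K and T-ALL1, against 57.3%. TNIP2 was highest in KOPT-K in all 3 probe sets, at 8.69 ± 0.13, 8.70 ± 0.06 and 8.90 ± 0.05 (SD, n = 4), and lowest in CEM, at 8.14 ± 0.03, 7.95 ± 0.05 and 7.80 ± 0.07. Under quantile normalization 218335_x_at put HPB-ALL above KOPT-K, and 218335_x_at and 232160_s_at put T-ALL1 below CEM. NFKBIE was highest in T-ALL1, at 7.28 ± 0.07, against 6.62 ± 0.08 in KOPT-K, and CEM and DND41 did not differ beyond their spread at 6.83 ± 0.17 and 6.82 ± 0.07 (limma adjusted p = 0.950). NFKBIZ 223218_s_at was 6.97 to 7.09 in CEM, DND41 and HPB-ALL with no difference shown among them (limma adjusted p = 0.829). It was 5.27 ± 0.39 in KOPT-K and 5.77 ± 0.39 in T-ALL1, which differed (limma adjusted p = 0.0282). In 223217_s_at these lines did not differ, at 5.40 ± 0.06 and 5.41 ± 0.18 (limma adjusted p = 0.954). All 3 NFKBIB probe sets had DND41 above CEM, CEM above HPB-ALL, and T-ALL1 above KOPT-K. Of these steps, DND41 and CEM were not called apart in 214062_x_at and 228388_at (limma adjusted p = 0.237 and 0.113). TNIP1 207196_s_at was 9.51 ± 0.02 in DND41, 9.42 ± 0.03 in HPB-ALL and 9.15 ± 0.06 in CEM. Of these only DND41 and HPB-ALL did not differ beyond the threshold (limma adjusted p = 0.280). The other TNIP1 probe set, 243423_at, was 6.85 ± 0.30 in DND41, 6.41 ± 0.09 in HPB-ALL and 6.34 ± 0.15 in CEM. In it DND41 and HPB-ALL did differ (limma adjusted p = 0.00607), and only CEM and HPB-ALL did not (limma adjusted p = 0.662).

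Within lines, NFKBIA and TNFAIP3 had the highest correlation of all pairs of members. Over the 20 arrays, deviations from the line mean correlated at 0.776 between them, at 0.670 between NFKBIZ and TNIP1 and at 0.607 between TNFAIP3 and CYLD, while NFKBIB 214062_x_at and TNFAIP3 gave -0.390. The arrays share lines and peptides, so these values describe the arrays only. The genes most like TNFAIP3 by the same measure were ATF3 (0.959) and JUN (0.955), a stress-induced transcription factor and an AP-1 subunit, followed by ZNF148, RND1 and CREBRF. Those most like NFKBIA were RRAGC (0.967), a GTPase that signals amino acids to mTORC1, and TENT4B, RSF1, KBTBD2 and SESN3. For CYLD the highest value was lower, 0.826 with EXOSC6, and SMURF1, AKR1C3, CHD2 and BPGM followed.

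Of 60 other tested genes of the pathway, taken from 4 lists with 1 probe set per gene, 5 were called (8.33%), against 6.72% of all 13822 genes called in either direction. Of the 6 tested genes among NF-kB subunits and other ankyrin proteins, RELB, a subunit of the noncanonical pathway and itself an NF-kB target, rose by 0.35 ± 0.08 (SE; limma adjusted p = 0.0151), and the other 5 did not pass. Of 17 genes of the IKK complex and its activators none was called, with IKBKB, which encodes IKKβ, at -0.11 ± 0.05 and TAB1 at -0.11 ± 0.10. Of 15 other brakes on NF-kB, COMMD1, which promotes loss of RELA from chromatin, fell by 0.16 ± 0.04 (limma adjusted p = 0.0349). Of 22 other NF-kB target genes, CD83 rose by 0.33 ± 0.05 and IER3 by 0.26 ± 0.05 on average, with IER3 at 0.81 in KOPT-K and 0.04 to 0.19 in the other lines. MYB, a transcription factor of immature blood cells, fell by 0.15 ± 0.03 on average, but its effect differed between lines (F-test, limma adjusted p = 0.00283). It fell by 0.43 in CEM and by 0.55 in HPB-ALL, and it rose by 0.41 in DND41 (limma adjusted p = 0.0225, 0.00633 and 0.0221). The other 19 target genes did not pass on average. With 1 probe set per gene, 2 of the 8 members were called higher, against 1.64% of all genes called higher. The median average effect was 0.02 over the target list and 0.04 over the other brakes, against -0.01 over all genes.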

How the data were processed

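RNA of 20 samples was converted to labelled cRNA with a kit of repeated amplification and hybridised to Affymetrix U133 Plus 2.0 arrays, per the labels' protocols. The deposited values are linear intensities per probe set, and the submitters' processing notes name RMA with no version. They were taken to log2 with no pseudocount. Columns of T-ALL1 and KOPT-K differ from the others in decimals and mean, and no source used here gives the reason. Probe sets with 1 gene symbol that reached an intensity of 31.96, the median of all values, on 2 or more arrays were tested (26260). limma 3.58.1 in R 4.3.3 fitted 10 group means, with Benjamini-Hochberg adjustment over all tested probe sets at 0.05. Tests were the mean of the 5 line effects, each line's effect, an F-test of their difference, lines as replicates, and levels within a kind of column. Arrays have no sequencing depth, and their number per group, 2, limits precision.

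The members and lists were chosen with earlier results of these data known. Genes named are all members, HES1, list genes with a call for the average effect (otherwise the 2 with the largest average change), and the 5 genes whose deviations from the line mean were most like those of NFKBIA, TNFAIP3 and CYLD. Procedures were tested on simulated data. Same-numbered arrays of a line correlated in their deviations at -0.37 to 0.21, which showed no pairing by number. With so few arrays per line these values cannot exclude a shared culture or run, and no label tells. The main fits therefore had no block, and the block was fitted as an alternative. Alternatives were the filter, the prior, quantile and median scaling, log2 of the value plus 10, the actin covariate, 1 probe set per gene, the replicate number as a block, each kind of column alone, and leaving out each line or array. Some genes of the lists are not analysed here.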

Additional observations from a re-analysis of the deposited data

Results flagged for a closer look

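The NBD effect on TNFAIP3 202644_s_at differed between the 5 lines by a moderated F-test over all probe sets (limma adjusted p = 0.0287). The effect was 0.80 in KOPT-K and 0.15 to 0.31 in the other 4 lines, and NBD was higher in all 5. Without KOPT-K the same test gave an adjusted p of 0.721. The columns of KOPT-K are of 1 kind with those of T-ALL1, where the effect was 0.20, and in those 2 lines alone the test gave 0.337. The actin difference in KOPT-K was 0.97 and 0.73 with NBD, against 0.74 and 1.14 with control.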

How the results depend on the processing

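Of 35 alternatives, none reversed a called value. The count of member probe sets called on average was 4 of 21, against 2.11% of all tested probe sets called higher and 4.02% lower. It was 2 of the 8 members with 1 probe set per gene, against 1.64% of all genes called higher. In KOPT-K and T-ALL1 alone, a fit of 8 arrays, it was 0. Some fits that left out 1 array also changed it. The count of calls in single lines, 6, was 1 with the replicate block, 3 without CEM, 3 without DND41, 3 in CEM, DND41 and HPB-ALL alone, 0 in KOPT-K and T-ALL1 alone, and 4 to 13 when 1 array was left out (13 without T-ALL1 control 2). The shares of all probe sets called in single lines are not given for these alternative fits. These single-line counts thus do not tell a change in the members from a change across all probe sets. All 4 average calls kept their side of the threshold with the replicate block. The count of member probe sets whose effect differed between lines was 1 of 21, against 1.09% of all tested. It was 0 with no filter, with quantile normalization, with the replicate block, without CEM, HPB-ALL or KOPT-K, and in either kind of column alone. It was 2 with the trended and robust prior and with the actin covariate, and 0 to 5 when 1 array was left out. For this test too, the shares of all probe sets in the alternative fits are not given, so its changed counts have the same limit. The count of level differences among CEM, DND41 and HPB-ALL was 18 of 21, against 67.2% of all tested. With 1 probe set per gene it was 7 of 8, and leaving out 1 array did not change it. With lines as replicates the count was 0 in all alternatives.

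The averages of NFKBIA, NFKBIB 228388_at and TNFAIP3 202644_s_at lost their call only in KOPT-K and T-ALL1 alone (limma adjusted p = 0.290, 0.218 and 0.092), and that of TNFAIP3 202643_s_at in 7 of 34 alternatives. The TNFAIP3 difference between lines was lost in 21 of 35. The NFKBIA calls in CEM, DND41 and KOPT-K were lost with the replicate block at the same effects of 0.50, 0.50 and 0.46 (limma adjusted p = 0.212, 0.154 and 0.212). CYLD 221905_at was called at 0.26 without T-ALL1 control 1, and NFKBIZ 223217_s_at at 0.27 without DND41 NBD 1. The cause of these changes was not tested.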
